A study of Homo sapiens with 12 samples.

Results

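The Iroquois family of homeobox genes was followed in the established human breast cancer cell line MDA-MB-453, with and without the androgen dihydrotestosterone (DHT). The 8 genes were taken by symbol from a table of 60670 genes: IRX4, IRX2 and IRX1 of the chromosome 5 cluster, IRX3, IRX5 and IRX6 of the chromosome 16 cluster, and the chromosome 16 neighbours CRNDE and FTO as a regional check. All 8 passed the filter on low counts, as did 16355 genes in all. The genes were chosen by family and position, and with their fold changes between DHT and vehicle known. Their differences in that contrast, and the adjusted p-values printed with them, therefore describe the data and are no independent evidence. By its title the series is about AP-2β, a transcription factor, and enhancers of hormone-sensing mammary cells, and the question addressed by the contrast is which genes respond to androgen in this line.

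Cells of both groups had 72 h of growth in DMEM of high glucose content that held 10% FBS (fetal bovine serum). The 6 vehicle libraries came from cells given 0.001% ethanol for 6 h and the 6 DHT libraries from cells given 10 nM DHT for 6 h. The replicates of each group are described as independent and as consecutive passages of the same line, so p-values measure the spread between passages of a single line. RNA was read as single 40 bp reads, and the totals ran from 4346465 to 25678781 counts per library. The first principal component, with 50.9% of the variance, set the replicate 2 library of each group off from the remaining 10. All 8 luminal and apocrine markers examined were detected. FOXA1 and GATA3 were among those that passed downward, and 0 passed upward in edgeR, DESeq2 or limma-voom or at an unadjusted p under 0.05. ESR1 stayed between 0 and 0.641 CPM (counts scaled to a common library total) in every library. The leukocyte marker CD3E was at 0 in all libraries, and the sum of the 5 leukocyte markers was at most 0.321 CPM. The 4 endothelial markers summed to at most 1.55 CPM. The 6 fibroblast markers summed to between 76.2 and 110.5 CPM in vehicle and between 59.6 and 75.5 CPM in DHT libraries, most of it COL1A1. Of the 3 that could be tested 0 passed in edgeR, in DESeq2 or in limma-voom, and 3 were lower at an unadjusted p under 0.05 in edgeR. The share of all genes lower at that unadjusted threshold is not given here. DCN, LUM and PDGFRA were too low to test. Their means were 1.32, 0.618 and 0.371 CPM in vehicle and 0.371, 0.199 and 0.0807 CPM in DHT libraries. In bulk RNA fewer cells of a type and less RNA per cell cannot be told apart, and the part of this shift in the results below was not tested.

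Iroquois proteins are transcription factors of the TALE class of homeodomain proteins, which have extra residues inside the DNA-binding homeodomain. In vertebrates the 6 genes lie in a pair of clusters that arose by duplication, and they pattern the nervous system, heart, limb and other organs in the embryo. CRNDE is a long noncoding RNA gene that starts beside IRX5 and is transcribed away from it. FTO encodes an RNA demethylase, and its introns hold sequence described as enhancers of IRX3 and IRX5.

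The homeobox, the part of each gene that encodes the homeodomain, was nearly the same sequence throughout the family, and runs longer than the 40 bp reads were identical between members. The longest run of coding sequence that IRX3 and IRX5 had in common was 134 bases, within the homeobox. The stretch is shown 5′ to 3′ on the coding strand of each gene, from GENCODE 29 transcripts on GRCh38, with capitals where a base differs from IRX3.
IRX3 (chr16:54285321-54285454, minus strand): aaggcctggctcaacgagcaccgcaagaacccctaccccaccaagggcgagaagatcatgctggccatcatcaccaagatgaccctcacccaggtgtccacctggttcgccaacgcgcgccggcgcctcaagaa
IRX5 (chr16:54932633-54932766, plus strand): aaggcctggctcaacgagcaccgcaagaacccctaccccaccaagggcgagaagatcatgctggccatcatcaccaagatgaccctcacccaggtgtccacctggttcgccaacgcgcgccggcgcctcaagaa
IRX6 (chr16:55327656-55327789, plus strand): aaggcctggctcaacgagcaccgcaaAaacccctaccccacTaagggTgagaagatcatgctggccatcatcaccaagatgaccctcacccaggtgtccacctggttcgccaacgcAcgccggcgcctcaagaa
IRX1 (chr5:3599375-3599508, plus strand): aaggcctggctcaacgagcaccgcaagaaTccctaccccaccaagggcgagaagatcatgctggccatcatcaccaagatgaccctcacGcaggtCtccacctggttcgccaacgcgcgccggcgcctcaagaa
IRX2 (chr5:2749516-2749649, minus strand): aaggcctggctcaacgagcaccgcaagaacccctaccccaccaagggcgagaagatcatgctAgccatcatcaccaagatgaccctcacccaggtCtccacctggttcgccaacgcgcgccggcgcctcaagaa
IRX4 (chr5:1879635-1879768, minus strand): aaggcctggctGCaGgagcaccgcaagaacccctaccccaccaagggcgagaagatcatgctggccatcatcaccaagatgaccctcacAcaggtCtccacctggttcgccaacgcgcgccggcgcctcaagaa
Against IRX3 there were 0 differences in IRX5, 2 in IRX2, 3 in IRX1, 4 in IRX6 and 5 in IRX4. In each gene the stretch lies within a single exon, in coding sequence. The longest run equal to IRX3 was 68 bases in IRX6, 59 in IRX1, 62 in IRX2 and 74 in IRX4, each longer than a read.

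Counts in the deposited table were not always whole numbers. IRX4, IRX1, IRX5 and FTO had values that were not whole in all 12 libraries (tolerance 0.005), and IRX6 in 10 of 12. All 12 IRX6 values were whole or a multiple of 1/3 within 0.02, against 60.3% of the values of all tested genes. Of the 40-base sequences in the transcripts of a gene, 3.35% in IRX3, 3.31% in IRX5, 1.92% in IRX1, 1.91% in IRX4, 1.37% in IRX2 and 0.854% in IRX6 also occurred in another Iroquois gene. IRX1 shared further ones with AC016595.1, an antisense gene that overlaps it, for 19.0% in all. That gene (ENSG00000259603) was at 0 in all 12 libraries. IRX6 shared 29 of these sequences, each of them with both IRX3 and IRX5.

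The amount of signal that such sharing would pass between genes was computed by spreading each gene's reads evenly over its 40-base sequences and dividing shared ones equally among the Iroquois genes that hold them. For IRX6 the computed amount was 0.819 CPM in the vehicle group and 1.475 CPM with DHT, which is 98.7% and 76.7% of its measured means. For IRX1 it was 0.542 and 0.967 CPM, or 54.2% and 50.1% of the measured means. IRX4 and IRX2 had much smaller shares, 7.28% and 4.44% in vehicle and 9.15% and 6.58% in DHT libraries. In IRX3 and IRX5 the computed share was between 0.847% and 1.53%. The levels of IRX6 and IRX1 below are those listed under these names, and how much came from these genes themselves is uncertain.

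**Figure D1:**
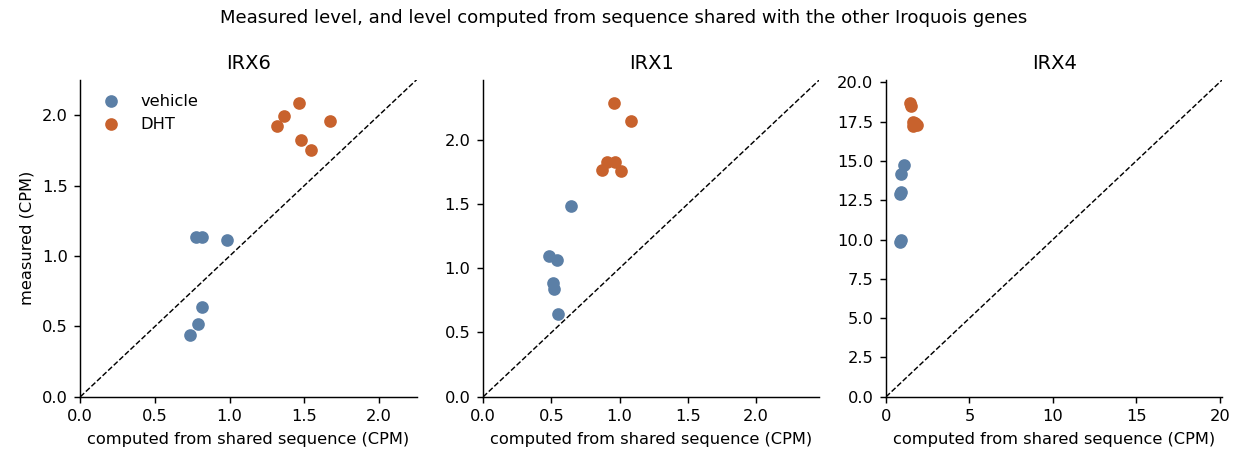
Measured CPM of IRX6, IRX1 and IRX4 (vertical axis) against the CPM computed from sequence shared with the other Iroquois genes (horizontal axis), with a point for each of 12 libraries and a dashed line at equality. For IRX6, 3 vehicle libraries lie below the line and the other 9 libraries above it. All IRX1 points lie above the line, and IRX4 lies far above it.

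Among the genes of the chromosome 16 cluster, IRX3 (ENSG00000177508, chromosome 16, 54283304 to 54286787, minus strand), a factor of spinal cord and heart patterning, was higher with DHT, about 2.20-fold. Its CPM had a lowest value, median and highest value of 108, 115 and 166 in vehicle and 226, 262 and 326.5 in DHT libraries. The groups did not overlap, and replicate 2 was the highest library in each. The means were 122 ± 21.8 and 269 ± 34.8 CPM (SD, n = 6 each), with a log2 fold change of 1.14 (SE 0.13, edgeR adjusted p = 2.90e-04). These values rest on 9308 counts over the vehicle and 24127 over the DHT libraries.

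IRX5 (ENSG00000176842, chromosome 16, 54930865 to 54934485, plus strand), a gene of heart, eye and face development, was the steadiest member between vehicle libraries. Vehicle libraries had a lowest, median and highest value of 120.2, 138 and 143 CPM, and DHT libraries 182, 199 and 209.6 CPM. Every DHT library lay above every vehicle library, and the lowest vehicle value was that of replicate 5. The coefficient of variation was 6.05% in vehicle and 4.96% in DHT libraries, against 17.8% and 12.9% for IRX3. The means were 136 ± 8.22 and 197 ± 9.77 CPM (SD, n = 6 each), with a log2 fold change of 0.54 (SE 0.09, edgeR adjusted p = 0.00410).

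IRX6 (ENSG00000159387, chromosome 16, 55324203 to 55330756, plus strand) was counted at a very low level, with 3 to 19 counts per vehicle library and 20 to 43 per DHT library. Its lowest, median and highest values were 0.438, 0.877 and 1.14 CPM in vehicle and 1.75, 1.94 and 2.09 CPM in DHT libraries. The groups did not overlap. The log2 fold change was 1.17 (SE 0.24, edgeR adjusted p = 0.0180). The level computed from sequence shared with IRX3 and IRX5 also lay higher in DHT libraries, from 1.32 to 1.67 CPM, than in vehicle libraries, from 0.737 to 0.980 CPM.

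Of the chromosome 5 cluster, IRX4 (ENSG00000113430, chromosome 5, 1877413 to 1887236, minus strand), known for its role in the heart ventricle, had 9.86, 12.96 and 14.75 CPM as lowest, median and highest value in vehicle. In DHT libraries these were 17.2, 17.45 and 18.7 CPM. The DHT values were close together and all above the vehicle values, which spread over a wider range. The means were 12.4 ± 2.08 and 17.8 ± 0.653 CPM (SD, n = 6 each), with a log2 fold change of 0.51 (SE 0.13, edgeR adjusted p = 0.0433).

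IRX2 (ENSG00000170561, chromosome 5, 2745845 to 2751677, minus strand) ran from 13.8 through a median of 16.5 to 24.8 CPM in vehicle and from 16.03 through 21.1 to 23.4 CPM in DHT libraries. The groups overlapped, and the highest value of all was that of vehicle replicate 6, the shallowest library. The log2 fold change of 0.27 (SE 0.15) did not pass (edgeR adjusted p = 0.563).

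IRX1 (ENSG00000170549, chromosome 5, 3595832 to 3601403, plus strand) was counted at a low level, with 3 to 20 counts per vehicle library and 20 to 47 per DHT library. Vehicle libraries had 0.641, 0.973 and 1.48 CPM as lowest, median and highest value, and DHT libraries 1.75, 1.82 and 2.28 CPM. The groups did not overlap. The log2 fold change was 0.91 (SE 0.20, edgeR adjusted p = 0.0227). The level computed from sequence shared with the other Iroquois genes ran from 0.483 to 0.647 CPM in vehicle and from 0.874 to 1.09 CPM in DHT libraries.

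**Figure D2:**
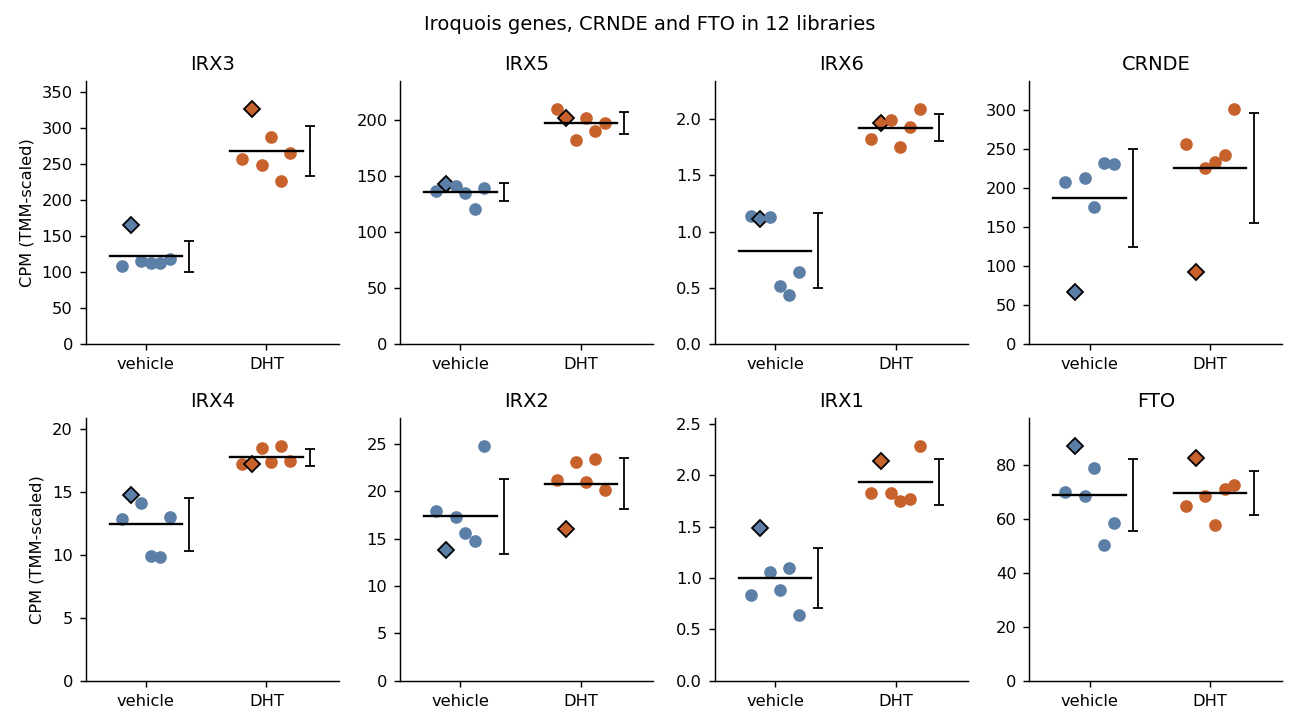
CPM of the 8 genes in 12 libraries (vertical axes, each from 0), with a point for each library, replicate 2 as a black-edged diamond, a line at the group mean and bars of 1 SD (n = 6). IRX3, IRX5, IRX6, IRX4 and IRX1 have all DHT points above all vehicle points, and IRX2, CRNDE and FTO overlap.

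In the fit across all genes, 5 of the 8 members passed upward (IRX3, IRX5, IRX6, IRX4 and IRX1) and 0 passed downward. Over all 16355 genes tested 2.84% passed, 1.96% upward and 0.880% downward, and nothing is read from the members' count beside it. At an unadjusted p under 0.05 the members also gave 0 downward. At the adjusted threshold DESeq2 and limma-voom gave 0 downward too, where 1.73% and 0.893% of all genes passed downward. In the same 5 genes the lowest DHT value exceeded the highest vehicle value, as it did in 2.28% of all genes tested. IRX3, IRX5 and IRX6 passed in all 23 alternative fits. With no filter on low counts, where 0.706% of all genes passed upward, 3 members did. IRX1 passed in 15 of 23. It missed the threshold with no filter on low counts (adjusted p = 0.0957). Leaving out a single library also made it miss the threshold for vehicle replicates 1, 3, 4 and 6 and DHT replicates 1, 3 and 6, at adjusted p from 0.0501 to 0.0652. IRX4 passed in 11 of 23. It missed the threshold with no filter (adjusted p = 0.135) and with library totals alone as scaling (adjusted p = 0.0749). The same held on leaving out vehicle replicate 1, 3, 4 or 6, or any of the 6 DHT libraries, at adjusted p from 0.0557 to 0.111. The 7 libraries named for IRX1 each left 3 members passing upward when left out.

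The authors' deposited table lists IRX3 at a log2 change of 1.14 (its adjusted p = 6.47e-06), IRX5 with 0.54 (adjusted p = 0.00374) and IRX4 with 0.50 (adjusted p = 0.0393). In the authors' deposited table IRX3 ranks 18 of 14559 genes by p-value. For the low-count genes the authors' deposited table differs from the fit here, with 0.43 for IRX1 and 0.33 for IRX6, neither past an adjusted p of 0.05. For IRX2 the authors' deposited table gives 0.30, for CRNDE 0.26 and for FTO -0.03, none of them past that threshold.

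The neighbours of the chromosome 16 cluster overlapped between the groups. CRNDE (ENSG00000245694, chromosome 16, 54845189 to 54929189, minus strand) had 66.6, 210.3 and 232 CPM as lowest, median and highest value in vehicle and 92.3, 238.0 and 301 CPM in DHT libraries. The lowest library of each group was replicate 2. The log2 fold change was 0.26 (SE 0.30, edgeR adjusted p = 0.863). With both replicate 2 libraries left out it was 0.25 with a smaller SE (0.10) and did not pass (edgeR adjusted p = 0.21). FTO (ENSG00000140718, chromosome 16, 53701692 to 54158512, plus strand) ran from 50.1 through 69.1 to 86.9 CPM in vehicle and from 57.7 through 69.75 to 82.3 CPM in DHT libraries. Its log2 fold change was 0.02 (SE 0.14, edgeR adjusted p = 0.989), with a positive value in 17 of 23 alternative fits and values from -0.06 to 0.09 among them. CRNDE and the 6 Iroquois genes had a positive value in all 23.

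The wider surroundings were examined from 1000000 bases before to 1000000 bases after each cluster. The chromosome 5 window (877413 to 4601403) held 66 genes, of which 38 were counted in some library and 19 passed the filter. The chromosome 16 window (53283304 to 56330756) held 71 genes, of which 48 were counted and 20 passed the filter. Beside the Iroquois genes, CRNDE and FTO, 0 of 16 tested genes on chromosome 5 and 0 of 15 on chromosome 16 passed in edgeR in either direction, where 2.84% of all tested genes did. At an unadjusted p under 0.05 there were 2 upward on chromosome 5 (BRD9 and TRIP13), and 1 upward (ENSG00000259725) and 1 downward (MMP2) on chromosome 16. The share of all genes at that unadjusted threshold is not given here, and nothing is read from these counts. At the adjusted threshold limma-voom also passed 0 in both windows, and DESeq2 passed 0 on chromosome 5 and 1 upward on chromosome 16, ENSG00000259725. Over all genes DESeq2 passed 510 of 16345 upward. The log2 fold changes of these 16 and 15 genes had a median of -0.05 and 0.02.

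TRIP13, a mitotic checkpoint ATPase gene, stood at 52.7 ± 6.34 and 65.5 ± 8.52 CPM (log2 fold change 0.31, adjusted p = 0.252 in edgeR). RPGRIP1L, a gene of the ciliary transition zone that starts beside FTO, stood at 16.1 ± 2.71 and 17.2 ± 1.68 CPM (log2 fold change 0.09). The unnamed gene ENSG00000259725, which lies just beyond IRX5, had 5.78 ± 1.00 and 8.30 ± 1.09 CPM (log2 fold change 0.53, adjusted p = 0.110 in edgeR). It did not pass in edgeR, although its 6 DHT libraries all lay above its vehicle libraries. MMP2, a matrix metalloproteinase gene beyond IRX6, had 1.37 ± 0.932 and 0.616 ± 0.181 CPM (log2 fold change -1.19, adjusted p = 0.145 in edgeR).

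**Figure D3:**
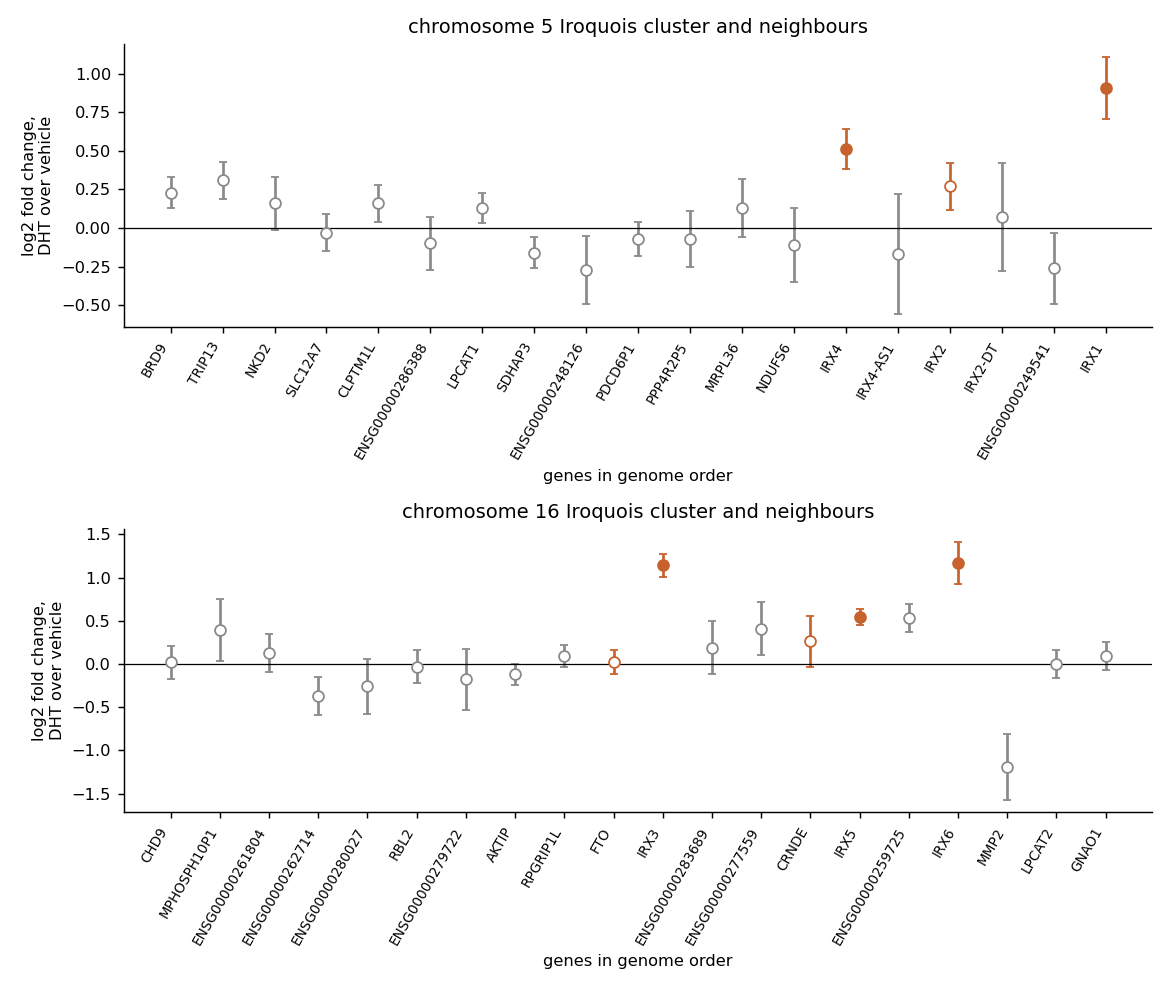
Log2 fold change of DHT over vehicle (vertical axis, bars of 1 SE) for the genes that passed the filter on low counts around each Iroquois cluster, in genome order from left to right. Orange marks the Iroquois genes, CRNDE and FTO, and filled points passed an adjusted p of 0.05. Filled points are IRX4, IRX1, IRX3, IRX5 and IRX6, separated by neighbours that did not pass.

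Levels of different genes were compared per kilobase of the gene length in the counts table (RPKM, CPM divided by the length), in vehicle libraries. IRX5 stood at 47.8 ± 2.89 RPKM and IRX3 at 41.7 ± 7.43 RPKM (SD, n = 6 each). CRNDE followed at 12.8 ± 4.26, IRX2 at 5.11 ± 1.16, IRX4 at 4.18 ± 0.700, FTO at 3.21 ± 0.623, IRX1 at 0.481 ± 0.138 and IRX6 at 0.281 ± 0.113 RPKM. Each pair of neighbours in this order was compared within libraries by an exact two-sided sign-flip permutation test on log2 levels, adjusted over 7 pairs. No pair passed. The smallest p that 6 libraries allow is 0.03125, which gave an adjusted p of 0.0547 here. That smallest p was reached by IRX3 over CRNDE, CRNDE over IRX2, FTO over IRX1 and IRX1 over IRX6, each in the same order in 6 of 6 libraries. IRX5 and IRX3 did not differ beyond their spread (mean log2 difference 0.21 ± 0.21, IRX5 higher in 5 of 6 libraries, exact permutation adjusted p = 0.109). IRX2 and IRX4 did not either (0.28 ± 0.35, IRX2 higher in 5 of 6 libraries, exact permutation adjusted p = 0.125). IRX4 over FTO had a mean difference above its SD (0.39 ± 0.29, IRX4 higher in 5 of 6 libraries) and did not pass (exact permutation adjusted p = 0.0875). The order depends on length. The counts table joins all exons of all isoforms into 14708 bases for CRNDE and 21379 for FTO. With the mean transcript length of the authors' deposited table, CRNDE came first at 112 ± 37.4 RPKM, ahead of IRX5 at 84.5 ± 5.11 RPKM, and FTO followed IRX3 at 31.2 ± 6.04 RPKM. IRX4 then lay above IRX2, in 4 of 6 libraries, and IRX1 lay above IRX6 in 3 of 6 (mean log2 difference 0.08 ± 0.61).

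As a sum, the 6 Iroquois genes ran from 88.9 to 117 RPKM in vehicle and from 158.5 to 195 RPKM in DHT libraries. In vehicle IRX5 was the more abundant of the leading pair in 5 of 6 libraries, with a ratio of IRX3 to IRX5 per kilobase between 0.763 and 1.13. In DHT libraries IRX3 was the more abundant in 6 of 6, with a ratio between 1.15 and 1.565. The single vehicle library with IRX3 above IRX5 was replicate 2. IRX3 held 41.7% ± 3.64 of the family sum in vehicle and 52.3% ± 2.98 in DHT libraries (SD, n = 6 each). The chromosome 5 genes together held 9.84% ± 1.29 and 7.525% ± 1.04. These shares follow from the same contrast and were not tested.

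Some Iroquois genes start close to another gene that is transcribed in the opposite direction, and CRNDE with IRX5 and IRX2-DT with IRX2 are described here. The starts of CRNDE and IRX5 lie 1676 bases apart in the counts table, and those of IRX2 and IRX2-DT, listed as C5orf38 in the authors' deposited table, lie 454 bases apart. Within groups, CRNDE and IRX5 did not move together between libraries. Replicate 2 had 66.6 and 92.3 CPM of CRNDE, against 176 to 232 CPM in the other vehicle and 226 to 301 CPM in the other DHT libraries. IRX5 in replicate 2 was at 143 CPM in vehicle, the highest of the group, and at 202 CPM in DHT, within the range of the others. Pearson's r between log2 CRNDE and IRX5, centred within each group, was -0.33 over 12 libraries and 0.02 over the 10 without replicate 2. Centring takes out the difference between the groups. Without centring r was 0.14 over 12 libraries, replicate 2 included.

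On chromosome 5, IRX2-DT (ENSG00000186493, chromosome 5, from 2752131, plus strand) was the reverse case. It stood at 25.65 and 21.55 CPM in the replicate 2 libraries, against 5.13 to 11.25 CPM in the other vehicle and 7.25 to 12.35 CPM in the other DHT libraries. IRX2 in replicate 2 was the lowest of its group, at 13.8 and 16.03 CPM. The centred r between log2 IRX2 and IRX2-DT was -0.74 over 12 libraries and -0.53 over the 10 without replicate 2. These correlations describe libraries that share depth and culture. IRX4-AS1, antisense to IRX4 and overlapping it, had 6 to 44 counts per library and a log2 fold change of -0.17 (edgeR adjusted p = 0.949). The sources used here do not say whether the counting used strand, so reads of IRX4 and IRX4-AS1 cannot be told apart. The same holds for IRX3 and ENSG00000283689, which overlaps it on the other strand and stood at 1.31 ± 0.750 and 1.598 ± 0.358 CPM (log2 fold change 0.19, edgeR adjusted p = 0.919).

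**Figure D4:**
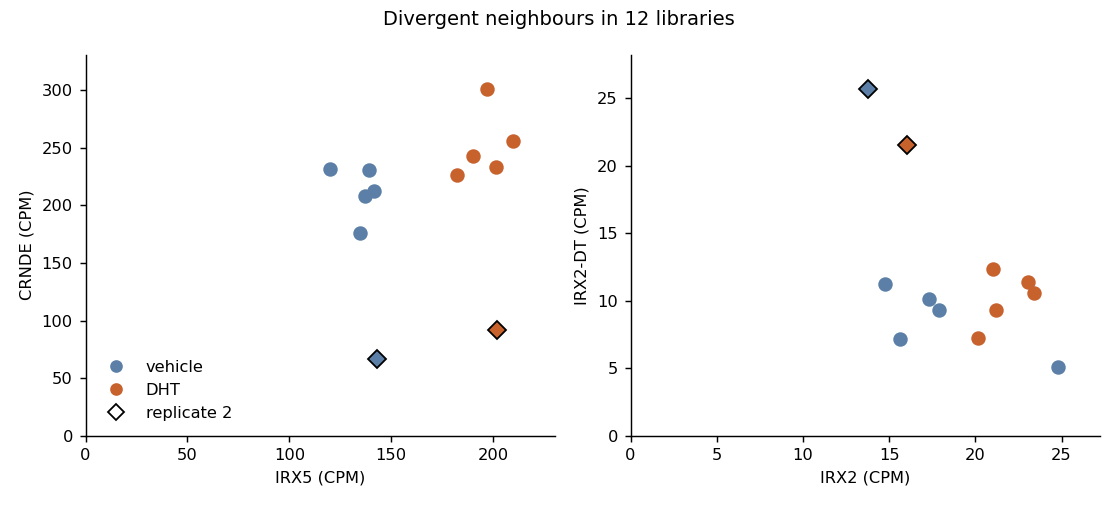
CRNDE against IRX5 and IRX2-DT against IRX2, in CPM on both axes, with a point for each of 12 libraries. The replicate 2 libraries (black-edged diamonds) lie lowest for CRNDE and highest for IRX2-DT, and DHT libraries lie to the right of vehicle libraries for IRX5.

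Promoter sequence was available for IRX4, IRX2, IRX1, CRNDE and FTO, 5 of the 8 genes, as RefSeq windows on GRCh38.p14. The 250 bases before the start are shown for IRX1, and for IRX2 and CRNDE because each starts beside a gene transcribed the other way, with matches to the AP-2 motif GCCNNNGGC in capitals.
IRX1 (chr5:3595582-3595831, plus strand): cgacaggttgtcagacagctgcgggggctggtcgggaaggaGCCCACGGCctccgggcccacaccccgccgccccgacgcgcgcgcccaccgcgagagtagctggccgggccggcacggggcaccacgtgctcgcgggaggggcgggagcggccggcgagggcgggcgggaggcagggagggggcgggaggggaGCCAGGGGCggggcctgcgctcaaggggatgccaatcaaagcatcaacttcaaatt
IRX2 (chr5:2751678-2751927, minus strand): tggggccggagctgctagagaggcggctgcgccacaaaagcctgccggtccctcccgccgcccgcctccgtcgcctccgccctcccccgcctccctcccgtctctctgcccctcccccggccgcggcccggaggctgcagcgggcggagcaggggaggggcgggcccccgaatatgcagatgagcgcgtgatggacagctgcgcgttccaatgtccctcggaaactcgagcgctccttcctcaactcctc
CRNDE (chr16:54928887-54929136, minus strand): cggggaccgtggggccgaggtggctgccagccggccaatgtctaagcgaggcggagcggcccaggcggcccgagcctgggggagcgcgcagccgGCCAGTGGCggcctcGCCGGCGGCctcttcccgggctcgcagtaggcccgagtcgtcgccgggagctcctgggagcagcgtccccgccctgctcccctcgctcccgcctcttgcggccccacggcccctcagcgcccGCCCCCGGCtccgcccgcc
These windows were rich in G and C, at 75.2% for IRX1, 72.8% for IRX2 and 80.0% for CRNDE, against a median of 58.0% over 35116 promoter windows. The AP-2 motif was found 3 times in the CRNDE window, 2 times in IRX1 and 0 times in IRX2 and FTO. It was found in 1 of 3 windows of IRX4, and 19.8% of all windows held it. The steroid receptor palindrome (inverted GNACA repeats 3 bases apart), the single receptor site AGAACA, the Iroquois palindrome ACANNTGT, the forkhead site TGTTTAC and the GATA site AGATAA were searched on both strands in all the windows of these 5 genes and had 0 matches. The shares of all windows that held them were 0.328%, 12.4%, 4.71%, 2.98% and 9.17%. These matches describe the letters of the windows only. The transcripts were GC-rich too, from 57.4% in IRX2 to 67.9% in IRX4 by the authors' deposited table, against 38.6% in CRNDE, 46.3% in FTO and a median of 48.2%. With offsets for GC content and length, where 3.55% of all genes passed upward, the same 5 members did, with log2 fold changes of 1.16 for IRX3, 0.55 for IRX5, 1.19 for IRX6, 0.50 for IRX4 and 0.90 for IRX1.

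Iroquois proteins share their class with the MEIS, PBX, PKNOX and TGIF factors. Of 12 other TALE genes 9 were tested, 1 passed upward, 0 passed downward and 8 did not pass, with a median log2 fold change of -0.07 against -0.05 over all genes tested. Of all genes tested 1.96% passed upward in edgeR and 0.880% downward. At an unadjusted p under 0.05 also 0 were lower in edgeR, and DESeq2 and limma-voom passed 0 downward. The gene that passed was TGIF2, a corepressor of TGF-beta signalling. It had 32.8 ± 3.36 CPM in vehicle and rose to 45.1 ± 4.16 CPM with DHT (log2 fold change 0.46, SE 0.10, edgeR adjusted p = 0.0282). PKNOX1 had a log2 fold change of -0.19 and did not pass, though it lay lower in every DHT library, as did 0.991% of all genes tested. MEIS1 and MEIS2, cofactors of HOX proteins, had log2 fold changes of 0.10 and -0.26 and did not pass.

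Of 12 partners and target genes described for Iroquois factors in other tissues, 4 could be tested. GATA3, the luminal transcription factor that has been described to bind IRX5, was the 1 that passed, downward (log2 fold change -0.59, SE 0.13, edgeR adjusted p = 0.0253). TRPS1, a repressor of the GATA family, stood at 559 ± 113 and 561 ± 69.8 CPM (log2 fold change 0.01). VDR, the vitamin D receptor, and ARID5B, a repressor tied to the FTO locus, had log2 fold changes of -0.33 and -0.18 and did not pass. The other 8, among them the chemokine gene CXCL12, the connexin gene GJA1 and the channel gene KCND2, averaged at most 0.393 CPM in vehicle. The median log2 fold change of the 4 was -0.26, against -0.05 over all genes tested, of which 0.880% passed downward in edgeR. At an unadjusted p under 0.05 in edgeR 2 of the 4 were lower and 0 higher, and the share of all genes at that threshold is not given here. Of 6 genes of energy balance tied to the FTO and IRX3 locus, 4 averaged at most 0.125 CPM (UCP1, PRDM16, CIDEA and PPARG), and PPARGC1A and RPGRIP1L were tested and did not pass (log2 fold changes -0.50 and 0.09). DESeq2 and limma-voom passed 0 of these as well, as did an unadjusted p under 0.05 in edgeR. The 8 RNA methylation genes examined beside FTO were all tested and 0 passed in edgeR, in DESeq2, in limma-voom or at an unadjusted p under 0.05, with a median log2 fold change of 0.08. ALKBH5, the other RNA demethylase of this kind, stood at 215 ± 56.3 and 192 ± 49.3 CPM.

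The genes whose log2 CPM was most like that of each member over the 12 libraries were named among 14382 genes, as a description. For IRX3 these were NFKBIA (Pearson's r 0.991), PREP (0.983) and WNT7B (0.982). For IRX5 they included PPP2CB (0.977) and NEDD4L (0.975). After centring within each group, the gene most like IRX3 was E2F1 (0.984) and the gene most like IRX5 was SEPHS1P1 (0.873). IRX3 and IRX5 themselves had r of 0.95 over 12 libraries, 0.47 after centring and 0.40 after centring in the 10 libraries without replicate 2. Over the 12 libraries the gene most like IRX4 was IRX6 (0.971). After centring r between IRX4 and IRX6 was 0.90, and the gene most like IRX4 was ARHGAP27 (0.932). IRX6 has 29 of the 40-base sequences in common with IRX3, 29 with IRX5 and 2 with IRX4. IRX1 was most like NBPF13P (0.961), IRX2 was most like GTPBP3 (0.959) and FTO was most like PRKAR2A (0.927). CRNDE was most like TAF1D (0.989), and after centring CLK1 and PPWD1 (both 0.993). All of these libraries share depth and culture, and replicate 2 enters every value over 12 libraries.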

How the data were processed

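The deposited table holds estimated counts per gene, made by the authors with STAR and featureCounts and the GRCh38 build (per the submitters' processing notes). The sources used here do not give versions, the use of strand or the treatment of reads with several matches. Libraries were made from 1 µg of total RNA, per the labels' protocols. Between 39.6% and 46.7% of nonzero values were not whole, so all were rounded before testing. By library totals alone, before the TMM scaling given below, a count was worth between 0.0389 and 0.230 CPM. The CPM values of genes use the TMM-scaled totals. Of the table, 60670 genes were used, 3 lines of a broken record were left out, and 60400 identifiers matched a symbol. The authors' deposited table of the comparison gives log2 fold changes, p-values and the GC percent of 14559 genes; the sources used here do not say how it was made.

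After the filterByExpr filter and TMM scaling, genes were tested by quasi-likelihood in edgeR 4.0.16 in R 4.3.3, with vehicle and DHT as groups, 6 libraries each, Benjamini-Hochberg adjustment over 16355 genes and a threshold of 0.05. The design had assumed whole counts. DESeq2 1.42.0, limma-voom (limma 3.58.1), other scalings and filters, a replicate block, offsets for GC and length and fits without single libraries were alternatives. The edgeR procedure was tested on simulated data. Levels in vehicle were compared on log2 RPKM with a pseudocount of 0.5 counts. Named genes were the members, genes around both clusters that passed the filter, list genes that passed or otherwise the most abundant, and the 3 genes most like each member; other list and region genes were named after their values were seen. The members and lists were chosen with earlier results of these data known. The alternatives without both replicate 2 libraries under the block, and with GC and length offsets or the authors' transcript lengths, were chosen after seeing the data. Some genes that this rule names are not reported here.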

Additional observations from a re-analysis of the deposited data

Results flagged for a closer look

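Of 20 groups of 6 libraries examined, for the members and the neighbours IRX4-AS1 and IRX2-DT, 6 held a library whose gap to its nearest neighbour exceeded Dixon's 95% critical value as a share of the group's range. Chance gives this in about 1 in 20 groups, and the genes share their libraries, so the 6 are not independent.

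Replicate 2 was the library apart in 5 of the 6. IRX3 in vehicle replicate 2 was the highest of its group at 166.2 CPM, where the other 5 ran from 108 to 118 CPM. CRNDE was the lowest in both replicate 2 libraries, with 66.58 (vehicle) and 92.29 CPM (DHT). IRX2-DT was the highest in both, with 25.65 (vehicle) and 21.55 CPM (DHT). The remaining one was IRX5 in vehicle replicate 5, the lowest of its group at 120.2 CPM.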

How the results depend on the processing

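IRX3, IRX5 and IRX6 kept their direction and call in all 23 alternatives, with log2 fold changes of 1.07 to 1.24, 0.50 to 0.59 and 1.03 to 1.29. The adjusted p-values of IRX6 reached 0.0477. The count of members passing upward was 3 with no filter on low counts and 3 to 5 without single libraries, and 0 passed downward in any alternative. The 464 genes passing in all became 793 with DESeq2 (510 upward, 283 downward), 920 without both replicate 2 libraries (608 and 312), 809 with GC and length offsets (517 and 292), and 278 to 619 without single libraries. Of the 7 neighbouring pairs in the order of levels, 4 had the same order in every vehicle library, and 4 to 6 did without single libraries. With the authors' transcript lengths the order was another one, and 3 of its neighbouring pairs had the same order in every vehicle library. IRX6 and IRX1 rest on 66 and 79 vehicle counts in all, which limits their precision. All alternatives start from the same deposited counts, so they cannot tell how much of IRX6 and IRX1 came from shared sequence. The authors' deposited table lists smaller log2 fold changes for them, 0.33 for IRX6 and 0.43 for IRX1.

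Replicate numbers are shared between the groups, but the labels do not say that a number marks a shared culture. Same-numbered libraries had correlated deviations in 5 of 6 pairs (r from 0.26 to 0.86) and not in replicate 5 (r = -0.23). Vehicle replicates 1, 4 and 5 correlated best with DHT libraries of another number (5, 6 and 2). Replicate 2 stands apart in both groups and enters every deviation from the group means. These r values therefore do not settle whether equal numbers share a culture. With the replicate block, 1286 genes passed (764 upward, 522 downward), and 788 (535 and 253) when both replicate 2 libraries were also left out. Under the block 5 members passed upward, and CRNDE, higher with DHT in 6 of 6 same-numbered pairs, had a log2 fold change of 0.28 (SE 0.09, edgeR adjusted p = 0.0720).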
